A study of Mus musculus with 3 samples.

Results

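A group of 64 genes was silent in the control library and expressed in both TR leukemias. The members were chosen on these expected counts: 0 (or not listed) in control, and at least 10 in TR1 and in TR9. They are 64 of the 16742 genes listed in any of the 3 libraries. They are also 64 of the 10821 genes with at least 10 expected counts in both TR libraries, a share of 0.591% that the rule itself fixes. Their difference from control is therefore a description and was not tested.

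TR is the fusion of TBLR1, a subunit of a nuclear corepressor complex, with the retinoic acid receptor RARα. Such RARα fusions occur in acute promyelocytic leukemia, in which myeloid cells stop at the promyelocyte, the stage at which the first neutrophil granules are made. Lineage-negative marrow, the control here, holds mostly stem and progenitor cells of all blood lineages.

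The control library was made from lin- cells, the bone marrow mononuclear cells left after removal of cells with mature lineage markers, of healthy C57BL/6 mice without virus. For TR1 and TR9 the RNA came from sorted GFP+ bone marrow cells of C57BL/6 mice with TR leukemia in the third transplant generation, in which a pMSCV retrovirus expresses TR together with GFP. TR1 and TR9 each descend from 1 primary leukemic mouse, mouse No. 1 and mouse No. 9. Each library pooled 3 mice aged 6 to 8 weeks, and there was 1 library per group, so no spread between replicates could be measured.

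Expected counts, the number of reads that RSEM assigns to a gene, summed to between 5129662 and 5571409 per library. At this depth 3 counts, taken as the limit that a count of 0 allows, correspond to 0.547 CPM (counts scaled to a common library total) in control. In the order control, TR1 and TR9, promyelocyte and granulocyte markers (9 of 9 listed) summed to 7580, 41300 and 33300 CPM, and progenitor markers (6 of 6 listed) to 874, 322 and 382. Erythroid markers (5) summed to 2060, 4.49 and 7.56 and megakaryocyte markers (4) to 975, 8.26 and 3.51, with Pf4 at 0 in both TR libraries. Of the progenitor markers, Kit had the most expected counts (2115, 853 and 1684). Flt3 (327, 792 and 126) was higher in TR1 than in control and lower in TR9. In the remaining marker lists the genes did not move together either, and a single gene carried much of each sum. Macrophage markers (6) summed to 160, 604 and 1010 CPM, mostly Vcam1 (471, 3139 and 5110 expected counts), while C1qa (104, 4 and 2), C1qb (86, 5 and 8), C1qc (86, 0 and 5) and Cd5l (85, 1 and 1) were lower in TR. Stroma and endothelium markers (5) summed to 1430, 189 and 859 CPM. Here Pecam1 had 746, 875 and 4338 expected counts, Col1a1 6904, 71 and 31, and Cxcl12 122, 1 and 6. T and NK cell markers (6) summed to 78.1, 156 and 125 CPM, mostly Nkg7 (412, 857 and 628 expected counts), with Cd3e, Cd3g, Cd2 and Klrd1 at 0 or 1 in TR. Of the B cell markers, Cd79a and Cd79b were at 0 in both TR libraries, whereas Igll1 had 2, 63 and 847 expected counts and Vpreb1 1, 14 and 20. The Y-linked gene Uty was at 256.5 in control but at 0 in TR1 and TR9. The sex of the mice was not in the labels. The part of these differences in the values below was not tested, and in bulk RNA fewer cells of a type and less RNA per cell cannot be told apart.

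Of the 64 genes, 62 are protein-coding and 2 (1810006J02Rik and 9330102E08Rik) are long noncoding RNAs. Most were expressed at a low level. The median expected count was 48.0 in TR1 (range 11 to 998) and 29.4 in TR9 (10 to 472.7). Per length, the median was 3.71 FPKM in TR1 and 3.10 in TR9, against 12.6 and 13.9 over the 10821 genes. Only 10 genes had at least 100 expected counts in both TR libraries, and 3 had at least 300. Together the 64 genes took 1173 CPM in TR1 and 941 in TR9. Set against 3 counts in control, the median lower bound was 15.8-fold in TR1 and 10.5-fold in TR9.

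**Figure D1:**
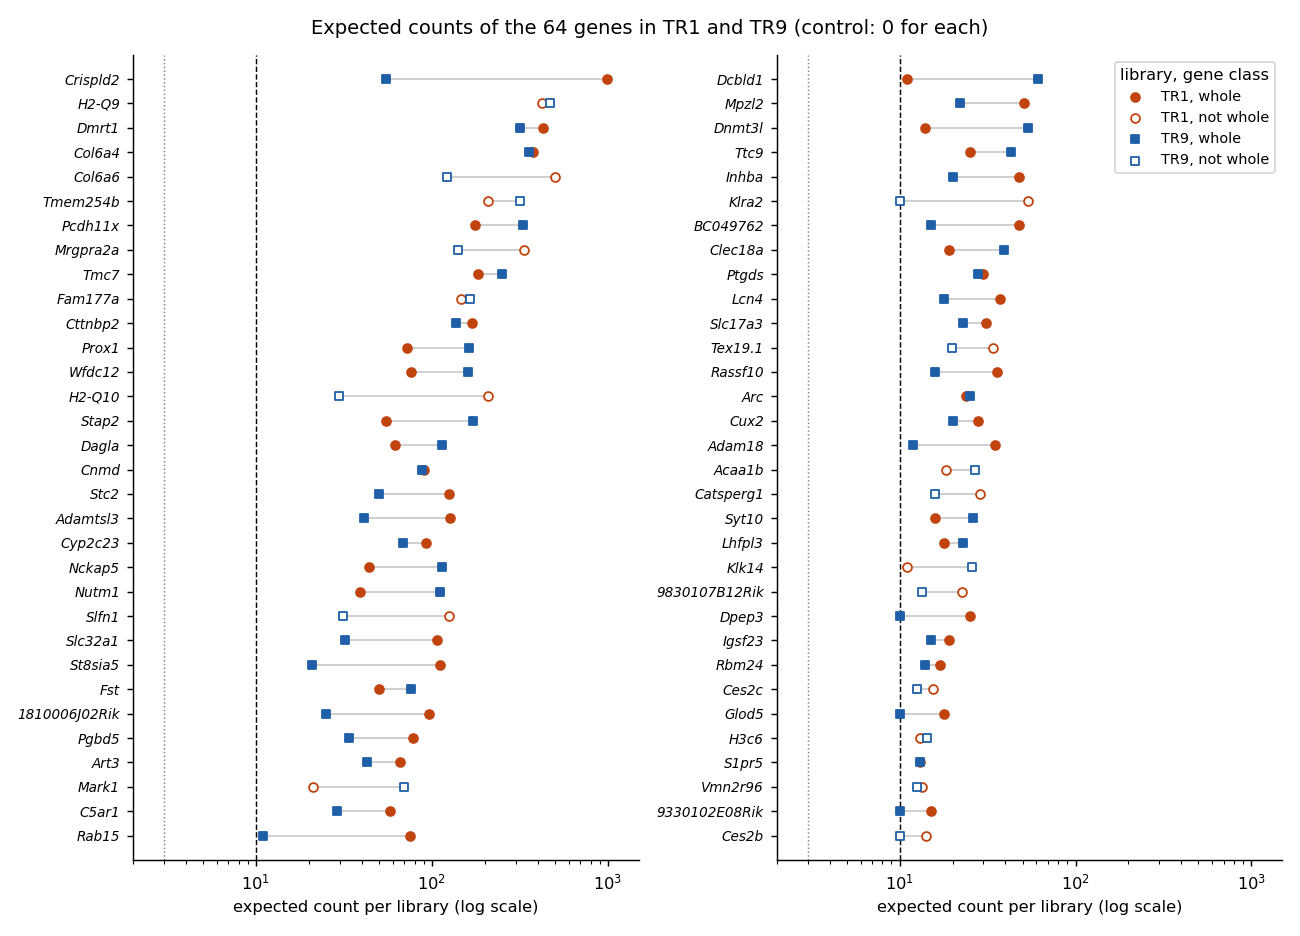
Expected counts per library (log axis) of the 64 genes, ordered by their mean CPM; circles are TR1, squares are TR9, open symbols mark counts that are not whole, the dashed line is the minimum of 10 and the dotted line is 3 counts. Crispld2 spans 998 in TR1 to 55 in TR9, and Dmrt1, Col6a4 and H2-Q9 lie above 300 in both.

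Expected counts were whole numbers in both TR libraries, within 0.005, for 46 of the 64 genes, and not whole for 18. The latter share, 28.1%, stood beside 21.1% of the 10821 genes. A count that is not whole can arise where RSEM divides a read that matches several genes between them. None of the 45 genes with whole counts and a transcript in the annotation held a 50-base stretch found in another gene on either strand. Of 17 such genes with counts that were not whole, 16 did, and 8 shared more than 10% of their 50-base stretches. The exception was Klra2, a lectin-like receptor of the Ly49 family, which shared none.

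Among genes with whole counts, Dmrt1 had the highest FPKM in the library where it was lower. Dmrt1 (gene ID 50796, chr19:25505618-25604329, GRCm38), a DM-domain transcription factor of testis development, was at 0 in control and had 430 expected counts in TR1 and 319 in TR9. In TR1 this was 34.2 FPKM, at least 141-fold higher than control, and in TR9 it was 27.6 FPKM, at least 114-fold higher. Its neighbour Dmrt3, another DM-domain gene, had 0, 7 and 8 expected counts. The log2 ratio of TR9 to TR1 was -0.31 for Dmrt1 (95% interval -0.53 to -0.10), which did not pass the test described below.

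Genes of the extracellular matrix and of cell contact made up a second set. The list of extracellular matrix genes contributed 3 members of 34 listed genes with at least 10 counts in both TR libraries. The totals given below for other gene lists were counted in the same way, so each full list is longer. Col6a4 (68553, chr9:105989454-106096783), an α chain of collagen VI, was at 0 in control and had 379 expected counts in TR1 and 358 in TR9. Col6a6 (245026, chr9:105687809-105828160), another α chain of collagen VI, had 0, 498.97 and 121.95 in the same order. In RefSeq the gene between these chains is Col6a5, and it had only 0, 3.03 and 1.05 expected counts. Adamtsl3, a secreted matrix protein, had 0 in control, 127 in TR1 and 41 in TR9. Pcdh11x, a protocadherin gene on the X chromosome and 1 of 12 cadherin genes counted in this way, had 0, 176 and 329. Between the leukemias, Col6a4 was not called different (log2 ratio 0.04, 95% interval -0.18 to 0.25), Col6a6 and Adamtsl3 were lower in TR9, and Pcdh11x was higher in TR9.

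Secreted proteins included the gene with the highest expected count in a single library. Crispld2 (78892, chr8:119992438-120052793), a secreted protein that binds lipopolysaccharide, was at 0 in control and had 998 expected counts in TR1 and 55 in TR9. In TR1 this was at least 328-fold higher than control, and in TR9 at least 19.6-fold. It was the only member among 22 late neutrophil genes with at least 10 counts in both TR libraries. Wfdc12, of the WAP family of protease inhibitors, had 0, 76 and 160, and per length it was one of the highest genes, at 17.5 FPKM in TR1 and 40.1 in TR9. Stc2, a glycoprotein hormone, had 0, 126 and 50. The cartilage protein gene Cnmd had 0, 91 and 88, and Ptgds, which makes prostaglandin D, had 0, 30 and 28. Their log2 ratios of TR9 to TR1 were 0.07 (-0.37 to 0.51) and 0.02 (-0.78 to 0.81).

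A ligand and its antagonist were both present. Inhba, the subunit that pairs to form activin A, was at 0 in control and had 48 expected counts in TR1 and 20 in TR9, and was 1 member of 17 cytokine and chemokine genes. Fst, follistatin, which binds and blocks activin, had 0, 50 and 76. Neither passed the test between TR9 and TR1, with log2 ratios of -1.14 (-1.97 to -0.36) for Inhba and 0.72 (0.19 to 1.27) for Fst.

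Receptors and transporters were few. C5ar1, the receptor of the complement peptide C5a, was at 0 in control and had 58 expected counts in TR1 and 29 in TR9. S1pr5, a sphingosine 1-phosphate receptor, had 0, 13 and 13, close to the minimum. With Vmn2r96, a vomeronasal receptor whose counts were not whole, these were 3 of 61 genes on the list of G protein-coupled receptors. The member Mrgpra2a, a Mas-related receptor described below, was not on that list. Slc32a1, the transporter that fills synaptic vesicles with GABA, had 0, 107 and 32, and Slc17a3, of a family of phosphate and anion transporters, had 0, 31 and 23. They were 2 of 183 solute carrier genes. Clec18a, a C-type lectin, had 0, 19 and 39, and Tmc7, of the transmembrane channel-like family, had 0, 183 and 250.

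Several members are known as regulators of transcription or chromatin, grouped here after their values were seen. Prox1 (19130, chr1:190118035-190170714), the transcription factor that specifies lymphatic endothelium, was at 0 in control and had 72 expected counts in TR1 and 164 in TR9. Nutm1, known from fusions in NUT carcinoma and otherwise a gene of the testis, had 0, 39 and 112. Dnmt3l, the cofactor of DNA methyltransferases in germ cells that has no catalytic activity of its own, had 0, 14 and 54. These 3 genes passed the test as higher in TR9. Cux2, a homeodomain factor of the cortex, had 0, 28 and 20 and did not. Tex19.1, which acts against transposons in germ cells, had 0, 33.99 and 19.96. It was the only member among the 14 genes of the germ cell list with at least 10 counts in both TR libraries. Dmrt1, Nutm1, Dnmt3l and Catsperg1, a sperm channel gene described below, were not on that list.

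Other members among the 30 with the highest mean CPM have varied roles. Cttnbp2, a cortactin-binding protein of dendritic spines, was at 0 in control and had 170 expected counts in TR1 and 137 in TR9. Dagla, the lipase that makes the endocannabinoid 2-arachidonoylglycerol, had 0, 62 and 115. St8sia5, a sialyltransferase, had 0, 111 and 21, and the cytochrome P450 gene Cyp2c23 had 0, 93 and 69. Stap2, a signaling adaptor, had 0, 55 and 171, and Nckap5 had 0, 44 and 114, both called higher in TR9. Pgbd5, derived from a piggyBac transposase, had 0, 78 and 34, and the ADP-ribosyltransferase gene Art3 had 0, 66 and 43. The noncoding 1810006J02Rik had 0, 97 and 25. Just below these 30, at rank 32, Rab15, a small GTPase of endosomes, had 0, 75 and 11.

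Of the 64 genes, 19 were on one of the gene lists and 45 were on none. There was no member among 351 zinc finger genes, 35 ion channel genes, 11 homeobox genes and 5 genes of the retinoic acid response that had at least 10 counts in both TR libraries. Prox1 and Cux2 were not on the homeobox list, and Tmc7 and Catsperg1, described below, were not on the ion channel list. Counted in the same way, the lists of T and NK cells (7 genes), B cells (4) and stroma and endothelium (10) also held no member. Most of these lists hold few genes, and the share of members over all 10821 genes was 0.591%. The counts describe the members and compare nothing.

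TR9 was compared with TR1 in these genes by the ratio of their counts. The rule did not ask for a difference between TR9 and TR1. It did set a minimum on the same counts, which limits the ratio, so the shares called are not independent of the rule. The test was a conditional exact Poisson test on the rounded counts, with Benjamini-Hochberg adjustment over the 15706 genes that TR1 or TR9 lists. A call needed a false discovery rate no higher than 0.001 together with a log2 ratio of 1 or more in size. The test compares the reads of 2 libraries, not the leukemias. By this test 10 of the 64 genes (15.6%) were higher and 13 (20.3%) lower in TR9. Of all genes tested 4.41% were higher and 2.35% lower, and of those with at least 10 counts in both TR libraries 4.69% and 2.86%. Among the 46 genes with whole counts, 9 were higher and 8 were lower. The median absolute log2 ratio was 0.91 over the 64 genes and 0.31 over the 10821 genes.

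The share called was also counted by level, and it was above that of other genes in 2 of 3 ranges. For a mean TR count of 30 to 100, 15 of 24 members (62.5%) were called, against 306 of 2309 other genes (13.3%). For 100 to 1000 it was 8 of 15 (53.3%) against 402 of 6529 (6.16%). For 10 to 30, where the minimum of 10 in both libraries leaves little room for a ratio, 0 of 25 members and 2.11% of 899 other genes were called, and the median absolute log2 ratios were 0.47 and 0.45. No test of the difference between members and other genes was made.

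**Figure D2:**
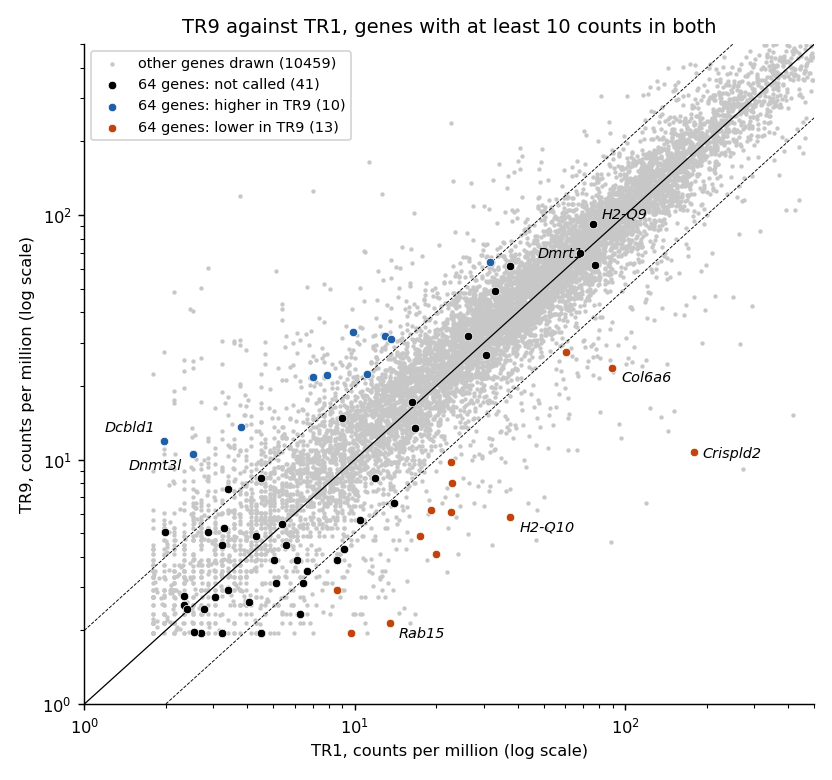
CPM in TR1 and TR9 (log axes) of the 64 genes, colored by the call between TR9 and TR1, over other genes with at least 10 counts in both (gray, 10459 drawn, those above 500 CPM left out); the solid line is equality and the dashed lines are a log2 ratio of 1 in size. The 10 genes higher in TR9 and the 13 lower lie outside the dashed lines, with Crispld2 farthest, at 179 in TR1 and 10.7 in TR9.

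Crispld2 had the most negative log2 ratio of TR9 to TR1, -4.06 (95% interval -4.48 to -3.67, counting error only). Next were H2-Q10 at -2.68 (-3.28 to -2.12), Rab15 at -2.65 (-3.71 to -1.73), Klra2 at -2.31 and St8sia5 at -2.28. Col6a6 (-1.91), Slfn1 (-1.90), 1810006J02Rik (-1.84), Slc32a1 (-1.62), BC049762 (-1.56), Adamtsl3 (-1.51), Stc2 (-1.21) and Mrgpra2a (-1.13) were also lower in TR9. In the other direction, Dcbld1, a transmembrane protein, was at 0 in control and had 11 expected counts in TR1 and 61 in TR9, a log2 ratio of 2.59 (1.65 to 3.67). It was followed by Dnmt3l at 2.07 (1.20 to 3.03), the kinase gene Mark1 at 1.86, Stap2 at 1.76 and Nutm1 at 1.64. Nckap5 (1.49), Prox1 (1.31), Wfdc12 (1.19), Pcdh11x (1.02) and Dagla (1.01) were also higher. Under the exact test of edgeR, run with the biological coefficient of variation set to 0.2, 3 of the 23 calls were left (Crispld2, H2-Q10 and Rab15, all lower in TR9). Over all genes tested, this setting called 188 higher and 94 lower. Pcdh11x and Dagla lost their calls under TMM scaling, by which the median log2 ratio of the 10821 genes moved from 0.12 to -0.01.

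Several genes with counts that were not whole belong to pairs or clusters whose members are nearly identical, and here the count of 1 copy and the sum over copies can differ. Mrgpra2a and Mrgpra2b, Mas-related receptors, have coding sequences of 993 bases that differ at 2 positions. A stretch with 1 of these differences (bases 292 to 351 of the coding sequence, 5′ to 3′, GENCODE annotation of GRCm38, the differing base in capitals) shows how little separates their reads.
Mrgpra2a: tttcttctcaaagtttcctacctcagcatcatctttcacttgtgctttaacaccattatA
Mrgpra2b: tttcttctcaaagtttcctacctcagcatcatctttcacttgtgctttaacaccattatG
Mrgpra2a was at 0 in control and had 336.36 expected counts in TR1 and 140.51 in TR9, while Mrgpra2b had 28, 1507.64 and 583.49. The sum of both was 28 in control, 1844 in TR1 and 724 in TR9, so the pair was not silent in control but was lower there.

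Tmem254b and Fam177a did not keep the pattern when related genes were added. The coding sequence of Tmem254b is identical to those of Tmem254a and Tmem254c over 387 bases. Tmem254b was at 0 in control and had 209.64 expected counts in TR1 and 316.91 in TR9, whereas Tmem254c had 286.95 in control. The sum over the 3 genes was 292.99 in control, 230.0 in TR1 and 331.96 in TR9. Fam177a and Fam177a2 share an identical coding sequence of 621 bases. Fam177a2 had 247.27 expected counts in control, and in TR1 and TR9 it had the same counts as Fam177a, 146.33 and 164.48. Reads from these coding sequences cannot be told apart. Over the whole transcripts, Fam177a2 shares 98.5% of the 50-base stretches of Fam177a. Tmem254a and Tmem254c share 100% and 82.6% of those of Tmem254b.

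Acaa1b, a peroxisomal thiolase, differs from Acaa1a at 44 of 1272 coding bases. The stretch with most differences (bases 259 to 318, differing bases in capitals) shows that a read from here would separate the copies.
Acaa1b: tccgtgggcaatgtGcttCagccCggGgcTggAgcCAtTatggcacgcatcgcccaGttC
Acaa1a: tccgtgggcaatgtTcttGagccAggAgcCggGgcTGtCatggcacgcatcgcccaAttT
Acaa1b was at 0 in control and had 18.3 expected counts in TR1 and 26.99 in TR9, and with Acaa1a added the counts were 102, 165 and 141 over control, TR1 and TR9. For Catsperg1, a subunit gene of the sperm calcium channel, and Catsperg2, the sums were 0, 30 and 16, so neither copy had a count in control. The H3c6 histone gene shared 50-base stretches with 11 other genes. With the 8 that shared most, it summed to 50.22, 77.06 and 49.57. Of the 62 genes with a transcript, 6 had relatives sharing at least 10% of the 50-base stretches with counts in control. H2-Q9 and 9330102E08Rik had no transcript in the annotation used here and were not checked.

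**Figure D3:**
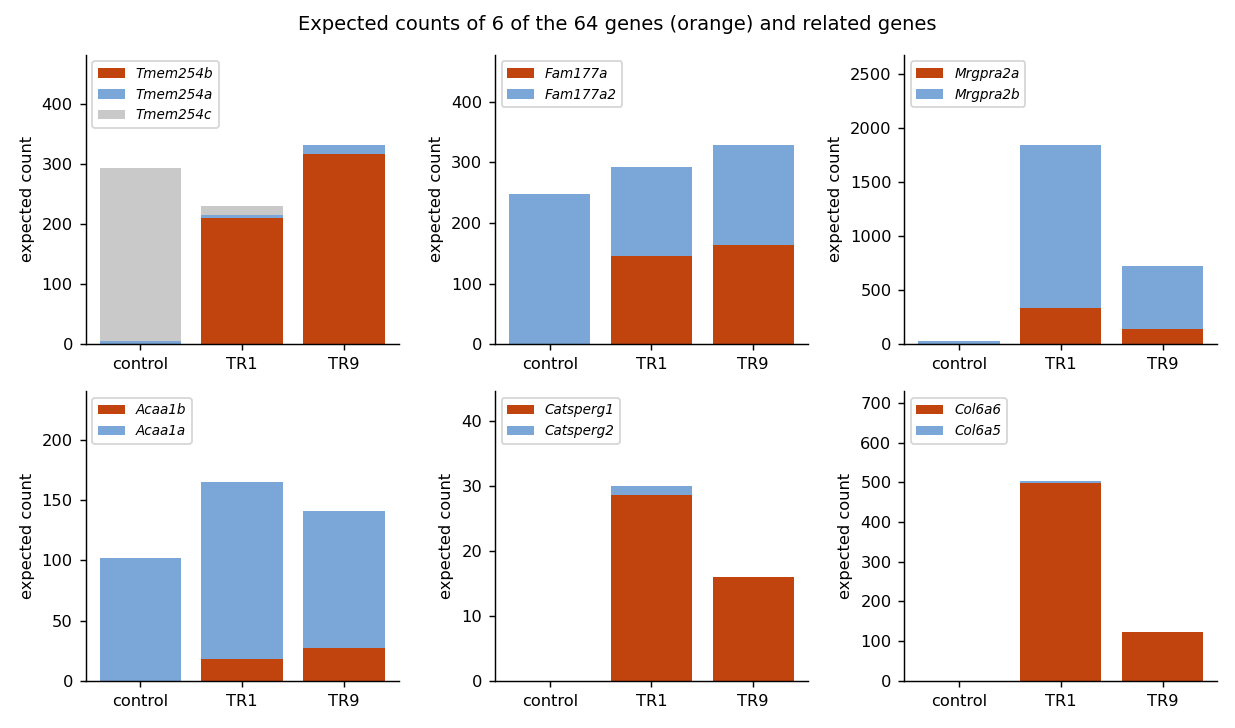
Expected counts (linear axes from 0) of 6 of the 64 genes, in orange, stacked with related genes in blue and gray, for the control, TR1 and TR9 libraries. Tmem254 and Fam177a sums in control (292.99 and 247.27) are near those in TR, whereas the Mrgpra2 sum is 28 in control and 1844 in TR1, and Catsperg and Col6a5 with Col6a6 are at 0 in control.

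Of the 19 MHC genes with at least 10 counts in both TR libraries, 2 were members, both with counts that were not whole. H2-Q9, a class I gene of the Q region, was at 0 in control and had 423 expected counts in TR1 and 472.68 in TR9. Other genes of the region, H2-Q7 and H2-Q8, had 188.87 and 40.6 in control. H2-Q7 had 503.12 in TR1 and 915.04 in TR9. H2-Q10, whose product is secreted, had 0, 209.49 and 29.87. Slfn1, a Schlafen gene and 1 of 49 interferon-induced genes, had 0, 125.94 and 31.17, and its relative Slfn4, with which it shares 0.606% of its 50-base stretches, had 72.42, 4296.56 and 3062.3. Ces2b and Ces2c, neighbouring carboxylesterase genes, had 14.12 and 15.47 in TR1 and 10.11 and 12.59 in TR9. The remaining 2 list members were Klk14, a kallikrein protease with 11.06 in TR1 and 25.86 in TR9, and H3c6 with 12.99 and 14.26.

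In CpG content the promoters of the 64 genes lay nearer to those of all genes than to those of the expressed genes. RefSeq gave 64 promoter windows for 48 of the genes, each from 250 bases before to 50 after a start (GRCm38.p6). A window was called CpG-rich where GC was at least 50% and the observed over expected CpG at least 0.6. This held for 18 of the 64 windows (28.1%), for 67.7% of the 11073 windows of genes with at least 10 counts in both TR libraries and for 33.5% of all 32851 windows. The median observed over expected CpG was 0.387, 0.767 and 0.384. For the 46 windows of genes with whole counts the CpG-rich share was 30.4%. With 1 window per gene, the share was 31.2% for the members, 71.3% for the expressed genes and 34.1% for all genes. For members with whole counts it was then 39.4%. The windows were not matched for expression level, which was lower in the members. Over the full windows, Crispld2 and Tmc7 were CpG-rich (observed over expected CpG 0.672 and 0.698) and Wfdc12 was not (0.131). Of each window, the 200 bases from 250 to 51 before the start are printed, 5′ to 3′ on the gene's strand with CG in capitals (Crispld2, chr8:119992188-119992387, plus strand; Tmc7, chr7:118584737-118584936, minus strand; Wfdc12, chr2:164190609-164190808, minus strand).
Crispld2: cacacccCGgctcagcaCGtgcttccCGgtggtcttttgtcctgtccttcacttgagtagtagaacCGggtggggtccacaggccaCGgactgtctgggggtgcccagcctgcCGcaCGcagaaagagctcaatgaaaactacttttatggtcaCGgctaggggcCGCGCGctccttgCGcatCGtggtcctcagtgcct
Tmc7: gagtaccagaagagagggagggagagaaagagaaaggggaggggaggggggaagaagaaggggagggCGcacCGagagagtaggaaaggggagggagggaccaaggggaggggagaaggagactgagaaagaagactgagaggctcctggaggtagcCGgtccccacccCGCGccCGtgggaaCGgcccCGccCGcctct
Wfdc12: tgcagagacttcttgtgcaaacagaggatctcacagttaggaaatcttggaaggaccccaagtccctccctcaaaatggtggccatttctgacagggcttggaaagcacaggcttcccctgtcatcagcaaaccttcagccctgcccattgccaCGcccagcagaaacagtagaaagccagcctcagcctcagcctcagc
These stretches hold 13 CG in Crispld2, 9 in Tmc7 and 1 in Wfdc12, of 20, 22 and 3 in the full windows. The CpG-rich rule was applied to full windows, so a printed stretch need not meet it alone. Crispld2 and Tmc7 thus combined a CpG-rich window with a control count of 0.

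**Figure D4:**
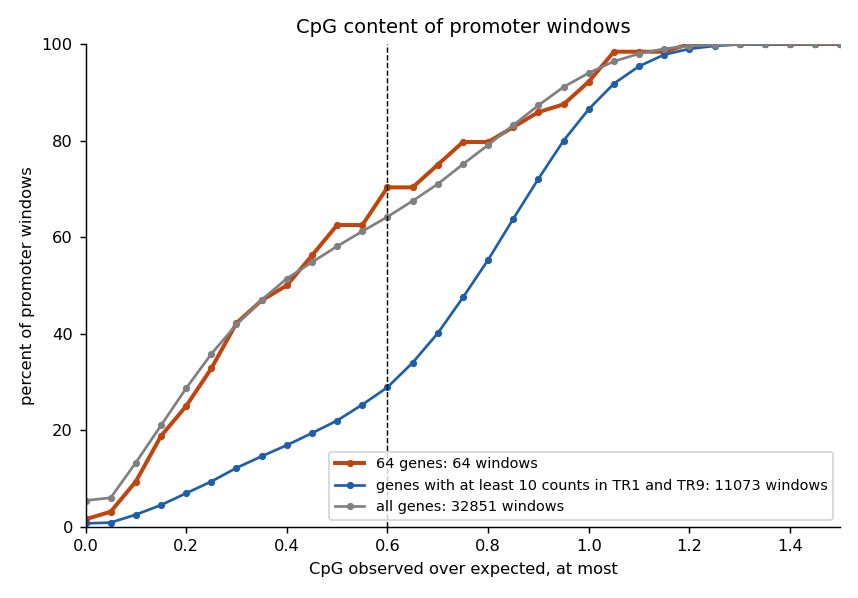
Percent of promoter windows (vertical axis) with an observed over expected CpG ratio of at most the value on the horizontal axis. Lines are the 64 windows of 48 of the 64 genes, those of genes with at least 10 counts in TR1 and TR9 (members included) and those of all genes. The dashed line marks 0.6. The line of the members' windows follows that of all genes, with medians of 0.387 and 0.384, and lies above that of the expressed genes, with a median of 0.767.

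Motifs were counted in the same windows on both strands, and a match of letters is not a binding site. AGGTCA, the core half-site of retinoic acid receptors, was in 10.9% of the windows of the 64 genes, 12.2% of those of genes with at least 10 counts in both TR libraries and 16.3% of all windows. GAGGAAG, bound by PU.1, was in 12.5%, 13.6% and 13.6% in the same order. TTNCNNAA, the C/EBP form, was in 39.1%, 31.7% and 40.7%, and TATAAA in 14.1%, 6.85% and 13.6%. CCGCCC, the GC box, was in 37.5%, 62.7% and 35.7%, and CACGTG, an E-box, in 3.12%, 10.5% and 7.15%. For each motif except the half-site and PU.1, the share among the 64 genes lay nearer that of all windows than that of the expressed genes.

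The limits of the rule cut through a continuous range. The members just inside the minimum were 9330102E08Rik (15 expected counts in TR1 and 10 in TR9), Dpep3 (25 and 10), Glod5 (18 and 10), Klra2 (54.04 and 10.03) and Ces2b (14.12 and 10.11). Just outside, at 0 in control, were 2210417A02Rik (10 and 9), Acox2 (9 and 13), Cystm1 (9 and 15), Hspa12a (9 and 41), Lims2 (9 and 86), Saa3 (838 and 9) and Slco4c1 (101 and 9). With 1 expected count in control, the highest were Orm1 (135.9 and 326.93), Car4 (79 and 315), Rasgef1a (161 and 231), Slc4a5 (143 and 176) and Boc (76 and 214). Another 39 of the 10821 genes had above 0 and up to 1 expected count in control, and 80 had above 1 and up to 3. With TR1 or TR9 in the place of control, the rule gave 20 of 10698 genes (0.187%) at 0 in TR1 and 4 of 10570 (0.0378%) at 0 in TR9. For control it was 0.591%. A rule of another form, with the minimum in control only, gave 190 of 11763 genes (1.62%) at 0 in both TR libraries.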

How the data were processed

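RNA-seq of 3 libraries was analysed, 1 per group, as named in the sample labels. Per the submitters' processing notes, the authors used BWA, Bowtie and RSEM with the mm9 build. The authors deposited the expected count of each gene, which is not normalized and need not be whole, and FPKM, scaled by length and library total. Genes missing from a file were taken as 0. Of 16742 gene IDs, 16698 matched a RefSeq symbol.

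Expected counts were rounded and TR9 was compared with TR1 by the conditional exact Poisson test (scipy 1.17.1) with library totals as exposure and 95% Clopper-Pearson intervals, which cover counting error only. Folds over control used 3 counts as the control value, scaled by library totals, and are lower bounds. On simulated data for TR9 against TR1 (15706 genes, 200 given a log2 difference of 2), 193 were recovered and 0 unchanged genes were called. The simulated counts held Poisson counting error only, and only genes above a minimum count were changed. The simulation therefore cannot show how many calls arise from variation between mice. edgeR 4.0.16 and DESeq2 1.42.0 in R 4.3.3 gave the alternative scalings. Shared 50-base stretches and coding sequences came from GENCODE transcripts of GRCm38 and promoters from RefSeq GRCm38.p6, not from mm9, so no coordinate comes from the files.

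Named were the 30 genes with the highest mean CPM, members on a gene list, the called genes with the largest ratios, and those next to a threshold. Other genes were named after their values were seen. The members and lists were chosen with earlier results of these data known. Protein sequences were not used here.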

Additional observations from a re-analysis of the deposited data

How the results depend on the processing

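The number of genes depended on the thresholds. It was 114 at a minimum of 5 expected counts, 38 at 20, 103 with up to 1 expected count allowed in control and 183 with up to 3, against 64. Between TR9 and TR1, 23 of the 64 genes were called, and 7 (2 higher, 5 lower) at an absolute log2 ratio of at least 2. Over all genes tested, the latter setting gave 290 higher and 137 lower. With edgeR's exact test at an assumed biological coefficient of variation of 0.2, 3 of the 64 were called (0 higher, 3 lower). Over all genes tested, it gave 188 higher and 94 lower. TMM scaling and median-of-ratios size factors each called 22, 21 of them shared with the 23, and over all genes tested TMM gave 551 higher and 456 lower against 692 and 369. The other alternatives for this count, FPKM ratios with and without a pseudocount of 1, a false discovery rate of 0.05 and only genes with at least 10 counts in a TR library tested, gave 19 to 29. No called ratio changed sign under any alternative. Of 19 genes on a list, 10 had whole counts. With 30-base in place of 50-base stretches, chosen after seeing the data, 26 genes in place of 16 shared a stretch with another gene. Numbers of whole counts, median folds and the CpG-rich share kept within 1.5 times or their interval. The cause of these differences was not tested, apart from what each threshold does by construction. No paired analysis was possible because each group had 1 library, and no library could be left out for the same reason.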

Other observations

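In RefSeq gene order, 121 distinct protein-coding genes outside the group flank its members. Of these, 27 were listed in no library, 60 had at least 10 expected counts in control, 60 had at least 10 in both TR libraries, and 10 were at 0 in control and above 0 in both TR libraries. The last set included Cpn1, the neighbour of Cyp2c23, with 5 expected counts in TR1 and 10 in TR9, Wfdc5 next to Wfdc12 with 3 and 3, and Mpzl3 next to Mpzl2 with 13 and 3. Also in it were genes with fewer counts, such as Ido1 next to Adam18 (2 and 2) and Slc17a1 next to Slc17a3 (1 and 3). The same shares over all protein-coding genes were not counted, so these numbers describe the flanking genes and compare nothing.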
